A study of Mus musculus with 10 samples.

Results

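The genes described here are 6 transcription factors of the bHLH-PAS family, Arnt2, Arnt, Ahr, Arntl, Clock and Epas1, and Ahrr, the repressor of the aryl hydrocarbon receptor. These 7 genes, of 22553 in the deposited count table, were matched by Ensembl ID to their mouse symbols. They were selected on the RNA counts of knockout (KO) and control (Ctrl) libraries, in which Arnt2 was already known to be low in KO, to set it beside its paralogs and the aryl hydrocarbon receptor axis. The KO and Ctrl values of the 7 genes are therefore given as a description, with no p-value; where counts of calls over all genes include them, nothing is read from it.

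bHLH-PAS proteins bind DNA as pairs. One partner is a sensor or an activator with a restricted role, such as AHR, which binds dioxins and tryptophan-derived ligands, HIF-2alpha (Epas1), which is stabilised at low oxygen, or CLOCK. The other partner is a shared subunit, ARNT or ARNT2 for AHR and the HIF-alpha proteins, and BMAL1 (Arntl) for CLOCK. Regulatory T cells (Treg) express Foxp3 and hold immune responses in check. AHR is known in them for its part in gut homing, and some clock genes, such as Nfil3, also act in T cell lineage choice.

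The study asked how Treg depend on TFAM, which packages mitochondrial DNA and is needed for its transcription. RNA came from YFP+ cells sorted from the spleen and lymph nodes of female littermates on the C57BL/6 strain, in 3 KO libraries (Tfamfl/flFoxp3Yfp-Cre/+, 2 floxed Tfam alleles) and 3 Ctrl libraries (Tfamfl/+Foxp3Yfp-Cre/+, 1 floxed allele). Each library pooled cells of 2 to 3 mice. Cre was expressed from the Foxp3 locus, so Ctrl Treg also lose 1 Tfam copy where Cre acts. All mice carried Foxp3 Yfp-Cre on 1 chromosome only, and because Foxp3 is X-linked they also hold Treg without Cre, which the sort leaves out. Ages and collection times are not given in the labels. ATAC-seq libraries (2 per genotype) were not used here.

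KO libraries held 19087757 to 23794028 counts and Ctrl libraries 21419772 to 27490253. Tfam was at 14.4 to 16.5 CPM (counts relative to the library total, scaled with TMM factors) in KO and 25.9 to 42.4 CPM in Ctrl, so no library went against its label. Summed CPM of 7 Treg markers lay between 2120 and 2430 in KO and between 2090 and 2470 in Ctrl, and that of 5 T cell markers between 2450 and 2510 in KO and between 2550 and 2730 in Ctrl. Of the 7 Treg markers, edgeR called 0. Tnfrsf18 was lower in KO at an unadjusted p under 0.05, as were 7.22% of all tested genes. With the replicate number as a block, edgeR called Ctla4 lower (adjusted p = 0.0432), where 4.39% of all tested genes were. Macrophage RNA was present: 11 markers summed to 485, 1190 and 427 CPM in KO replicates 1 to 3 and to 375, 824 and 432 CPM in Ctrl replicates 1 to 3, and each of the 11 was highest in the library numbered 2 of both genotypes. Of the 11, edgeR called 0 (0 also at an unadjusted p under 0.05). Still, 0 of them had a fitted log2 fold change below 0 (median 0.34), where 51.2% of all tested genes did. Once the replicate number was a block, 4 of the 11 were called higher in KO, where 1.97% of all tested genes were. Other lists were low, with highest sums, over all libraries, of 20.3 CPM for B cells, 19.1 CPM for CD8 T and NK cells, 13.8 CPM for dendritic cells, 11.9 CPM for neutrophils and red cells and 2.84 CPM for fibroblastic stroma. The endothelial list was carried by Pecam1, which T cells express; its other 5 genes summed to 0.262 to 0.506 CPM in KO and 0.269 to 0.682 CPM in Ctrl, with Emcn at 0. Same-numbered KO and Ctrl libraries deviated together from their group means over all genes, so a second fit took the number as a block. In bulk RNA, fewer cells that express a gene and less RNA per cell cannot be told apart.

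Arnt2 (ENSMUSG00000015709) encodes the ARNT paralog best known from neurons. It had 3, 4 and 2 counts in KO replicates 1 to 3, against 64, 53 and 56 counts in Ctrl replicates 1 to 3. As levels these were 0.127, 0.195 and 0.105 CPM in KO, against 2.46, 2.41 and 2.04 CPM in Ctrl. The groups lay far apart, and every KO library was near the level of 3 counts, which equals 0.127 to 0.157 CPM in KO libraries. Scaled for depth, the summed 9 KO counts were 0.0620 of the 173 Ctrl counts (exact binomial 95% interval 0.0279 to 0.120, counting error only). The fitted log2 fold change was -3.97 ± 0.33 (SE, n = 3 each, 95% interval -4.71 to -3.22). Arnt2 passed the filter on low counts only through its Ctrl libraries, as its KO counts were all under the minimum of 10. Within same-numbered libraries KO was at 5.15%, 8.08% and 5.13% of Ctrl.

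Arnt (ENSMUSG00000015522), the broadly expressed partner of AHR and of the HIF-alpha proteins, had 85.9, 86.0 and 94.5 CPM in KO replicates 1 to 3, against 81.5, 85.5 and 77.7 CPM in Ctrl. All KO libraries were above all Ctrl libraries, but KO replicates 1 and 2 only just exceeded Ctrl replicate 2. The log2 fold change was 0.12 ± 0.07 (95% interval -0.03 to 0.28). Of the counts assigned to Arnt or Arnt2, Arnt2 held 0.147%, 0.226% and 0.111% in KO replicates 1 to 3, and 2.93%, 2.74% and 2.56% in Ctrl replicates 1 to 3. The exact 95% intervals reached at most 0.577% in KO and began at 1.94% or above in Ctrl. They cover counting error within a library and not the spread between pools. Arnt2 was chosen as low in KO, so their separation is a description only. These shares are not scaled for transcript length, so they compare genotypes and do not rank the paralogs.

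**Figure D1:**
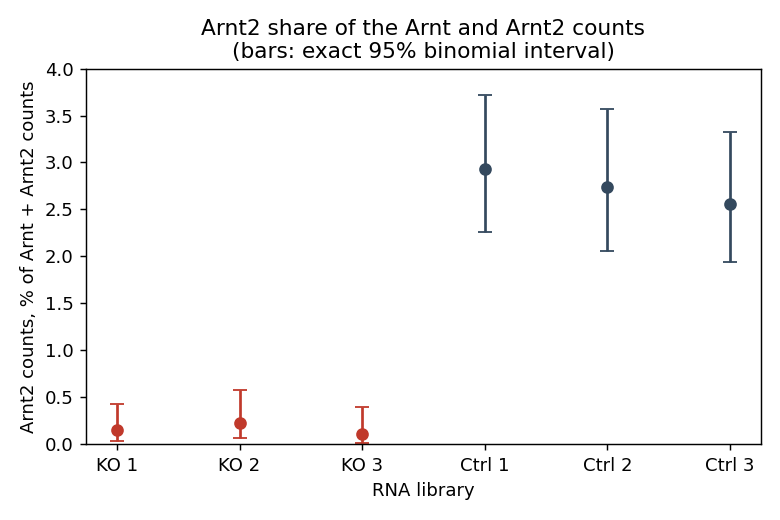
Share of Arnt2 in the counts assigned to Arnt or Arnt2 (y axis, percent) for each KO and Ctrl RNA library (x axis), with exact 95% binomial intervals as bars. The KO libraries sit between 0.111% and 0.226% and the Ctrl libraries between 2.56% and 2.93%. The intervals cover counting error only, and Arnt2 was chosen with its low KO level known.

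The promoter windows of these paralogs differ in letters, and they are shown beside that of Ahrr, a known target of AHR, because the axis of AHR and its partners acts through the core GCGTG. Each window runs from 250 bases before to 50 bases after the start site in RefSeq (GRCm38.p6), 5′ to 3′ on the gene's strand: chr7:84409989-84410288 on the minus strand for Arnt2, chr3:95434140-95434439 on the plus strand for Arnt and chr13:74292282-74292581 on the minus strand for Ahrr. Capitals mark GCGTG, the core of the xenobiotic response element, or ACGTG, the core of the hypoxia response element, on either strand.
Arnt2 promoter: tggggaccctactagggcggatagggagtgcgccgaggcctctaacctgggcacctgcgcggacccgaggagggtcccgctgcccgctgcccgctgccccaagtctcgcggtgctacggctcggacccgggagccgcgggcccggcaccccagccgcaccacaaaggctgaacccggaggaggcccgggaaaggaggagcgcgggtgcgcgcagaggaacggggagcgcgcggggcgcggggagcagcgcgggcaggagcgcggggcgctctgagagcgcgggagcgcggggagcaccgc
Arnt promoter: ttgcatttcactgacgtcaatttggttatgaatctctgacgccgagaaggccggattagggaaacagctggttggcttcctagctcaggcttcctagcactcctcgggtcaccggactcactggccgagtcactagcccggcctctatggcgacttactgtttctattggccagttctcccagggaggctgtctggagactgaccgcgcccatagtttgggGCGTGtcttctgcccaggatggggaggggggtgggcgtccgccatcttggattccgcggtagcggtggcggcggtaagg
Ahrr promoter: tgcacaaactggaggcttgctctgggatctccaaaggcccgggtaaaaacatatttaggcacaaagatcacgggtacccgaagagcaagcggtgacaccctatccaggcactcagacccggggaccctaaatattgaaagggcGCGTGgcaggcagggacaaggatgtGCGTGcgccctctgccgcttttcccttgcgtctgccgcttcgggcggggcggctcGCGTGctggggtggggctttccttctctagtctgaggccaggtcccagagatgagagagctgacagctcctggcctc
The Arnt2 window held neither core, and its GC content was 76.7%, against 59.3% for Arnt and a median of 52.7% over 32851 windows. The Arnt window held 1 GCGTG and the Ahrr window 3. Of all windows 32.4% held at least 1 GCGTG and 3.91% at least 3, so a single match is common. ACGTG was in 19.6% of windows and in none of these; CACGTG, the E-box of CLOCK and BMAL1, which contains ACGTG, was in 7.15% and also in none of these. RefSeq windows matched 5 of the 7 genes. The Arntl windows (2) held none of the 3 motifs, and among the 3 Clock windows 1 had 1 GCGTG and 1 had 2. GC content was 60.7% and 61.7% in the Arntl windows and 76.3%, 76.7% and 47% in the Clock windows. A GC content like that of Arnt2 was thus also found at Clock. A match is only a run of letters, and its absence from this window says nothing about binding elsewhere.

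Ahr (ENSMUSG00000019256), the ligand-activated receptor, had 9.16, 9.05 and 11.4 CPM in KO replicates 1 to 3, against 14.98, 20.2 and 13.3 CPM in Ctrl replicates 1 to 3. Every KO library was below every Ctrl library, and the nearest were KO replicate 3 and Ctrl replicate 3. The means were 9.86 ± 1.32 CPM in KO and 16.2 ± 3.63 CPM in Ctrl (SD, n = 3 each), with a log2 fold change of -0.71 ± 0.17 (95% interval -1.10 to -0.32) and of -0.70 ± 0.15 with the replicate block. KO was at 61.1%, 44.8% and 85.9% of the same-numbered Ctrl library, so the distance was unequal across the pairs. Ctrl replicate 2, the highest in Ahr, also held the most macrophage RNA in its group. KO replicate 2, with the most macrophage RNA of all, was nearly level in Ahr with KO replicate 1 (9.05 and 9.16 CPM). The part of these cells was not tested. Without both libraries numbered 2 the log2 fold change was -0.46 ± 0.16, and without Ctrl replicate 2 alone -0.52 ± 0.14.

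Ahrr (ENSMUSG00000021575), whose protein competes with AHR for ARNT, was barely detected. It had 3, 4 and 0 counts in KO and 5, 5 and 5 in Ctrl, and it did not pass the filter on low counts. The ratio of summed counts, 7 in KO to 15 in Ctrl, was 0.556 with a 95% interval of 0.192 to 1.45, so a difference was not detectable at this depth.

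Arntl (ENSMUSG00000055116) encodes BMAL1, the partner of CLOCK in the activating arm of the circadian clock. Its level was 39.1, 35.3 and 36.8 CPM in KO, against 38.9, 41.5 and 37.0 CPM in Ctrl, with overlapping groups. The log2 fold change was -0.08 ± 0.08 (95% interval -0.25 to 0.10). Clock (ENSMUSG00000029238) had 19.2, 18.3 and 18.5 CPM in KO, against 18.1, 18.6 and 16.2 CPM in Ctrl, also overlapping, at 0.08 ± 0.09 (-0.12 to 0.29). The replicates of both genes lay close together, with an SD of 5.09% of the mean in KO and 5.78% in Ctrl for Arntl, and of 2.63% in KO and 7.07% in Ctrl for Clock.

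Epas1 (ENSMUSG00000024140), HIF-2alpha, is known from endothelium and macrophages and partners with ARNT. It was low and spread widely, at 3.00, 2.38 and 2.05 CPM in KO, against 3.69, 2.95 and 1.97 CPM in Ctrl. The groups overlapped, and in both genotypes replicate 1 was highest and replicate 3 lowest. The macrophage markers were highest in replicate 2, and the endothelial markers Cdh5, Kdr, Tek and Tie1 did not exceed 0.422 CPM in any library; the part of either cell type in the Epas1 level was not tested. The log2 fold change was -0.21 ± 0.27 (95% interval -0.83 to 0.42), and its sign turned without Ctrl replicate 1 (0.03 ± 0.30).

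**Figure D2:**
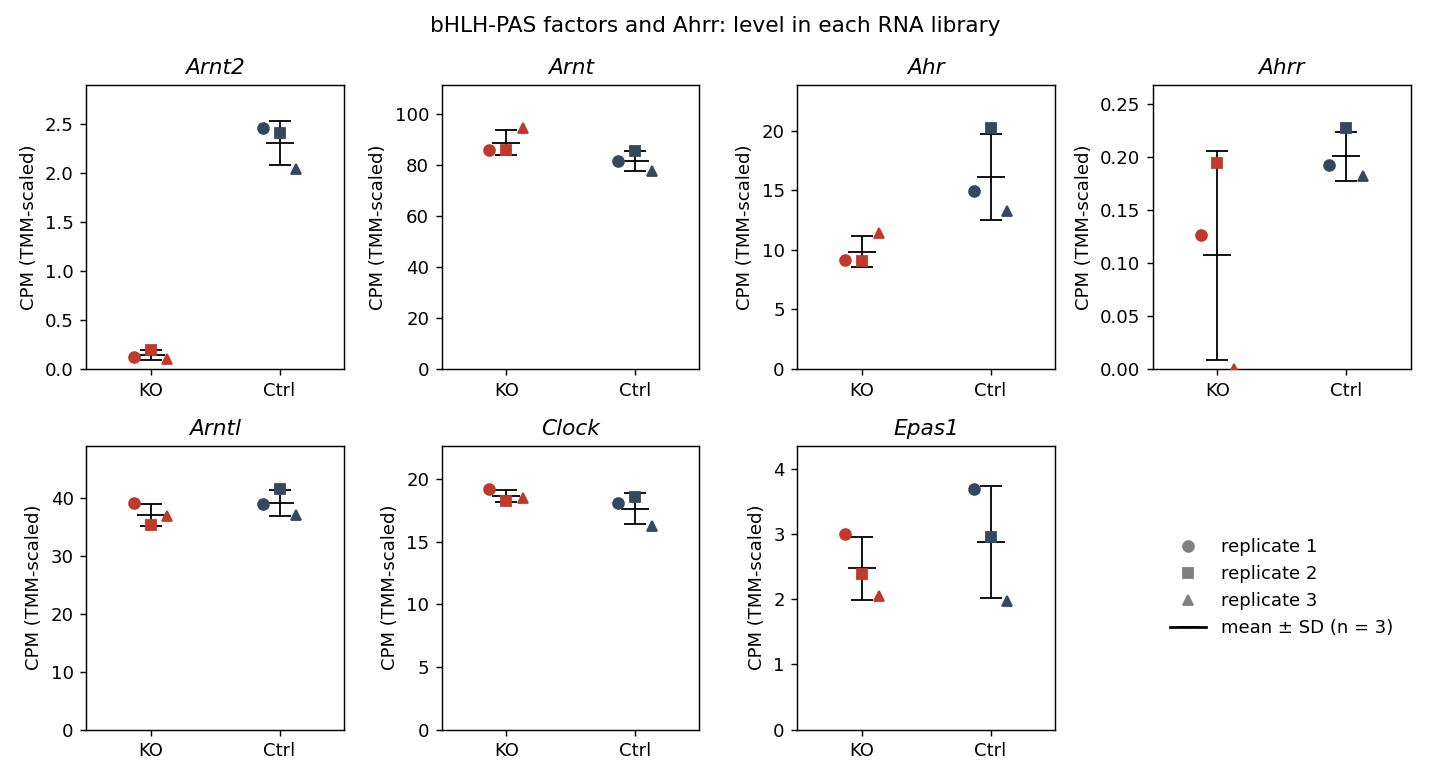
Level of each of the 7 genes (y axis, TMM-scaled CPM from 0, a scale of its own per panel) in the KO and Ctrl RNA libraries; symbols give the replicate number and the black marks the mean ± SD (n = 3). Arnt2 and Ahr lie lower in every KO library, Arnt slightly higher, and the KO and Ctrl points of Arntl, Clock, Epas1 and Ahrr overlap.

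Of the 6 genes that passed the filter, 1 (Arnt2) was called lower in KO by edgeR, where 1.39% of all tested genes were, and 0 higher, where 0.1% were. With the replicate block the count was 2 (Arnt2 and Ahr), where 4.39% were lower, and 0 higher, where 1.97% were. Groups did not overlap for 3 of the 6, where this held for 19.1% of all tested genes. Since the genes were chosen with this contrast known, nothing is read from these counts.

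The genes whose levels ran most like Arnt2 over the 6 libraries (Pearson r of log2 CPM, 10676 genes compared) were Ptpn5, a tyrosine phosphatase, at 0.9985, Mapk8ip1, a JNK scaffold, at 0.9957, Cobll1 at 0.9948, the chemokine receptor Cxcr3 at 0.9942 and Baiap3 at 0.9927. Such values rest mainly on the gap between the genotypes that these genes share. Once the group means were taken out, r was 0.947 for Ptpn5 and 0.587 to 0.676 for the other 4. Ptpn5 stood at 2.31 ± 0.20 CPM in KO and 4.98 ± 0.24 CPM in Ctrl, a log2 fold change of -1.11 ± 0.16. For Ahr the nearest were Lgalsl (0.9841), the nucleotide hydrolase Dnph1 (0.9824) and the bicarbonate transporter Slc4a7 (0.9823). With the group means taken out their r was 0.941 to 0.964. All these genes were picked for the highest r over the same 6 libraries, which largely fixes such values, so they are a description only.

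Beyond these genes, 58 genes of 8 linked lists were examined, of which 43 could be tested. Of the 43, 3 fell in KO (6.98%, against 1.39% of all tested genes), 0 rose and 40 did not pass. The 3 were Gpr15, Il10 and Nfil3. At an unadjusted p under 0.05, 12 were lower (27.9%, against 7.22% of all tested genes) and 1 higher (2.33%, against 5.4%). By DESeq2 6 fell and by limma-voom 3, with 0 higher in each. Without KO replicate 1 or 3 or Ctrl replicate 1 or 2 only Gpr15 was called, without KO replicate 2 Gpr15 and Nfil3, and without Ctrl replicate 3 the count was 6. With the replicate block 9 fell (20.9%, against 4.39%) and 1 rose. The median log2 fold change of the 43 was -0.05, against -0.005 for all tested genes, and 27 of them (62.8%, against 51.2%) were below 0. The lists were drawn up with earlier results of these data known, so no enrichment is read from these shares.

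Genes linked to AHR in T cells carried 2 of the 3 falls, among 4 tested of 7, with a median log2 fold change of -1.12. Gpr15, a gut-homing receptor whose expression in Treg depends on AHR in mice, had 2.19, 3.07 and 2.89 CPM in KO replicates 1 to 3, against 9.91, 12.7 and 10.3 CPM in Ctrl. It fell 4.04-fold (log2 fold change -2.01 ± 0.18, edgeR adjusted p = 0.0017), and every KO library was below every Ctrl library. The call held with each library left out (adjusted p at most 0.0155). Il10, a suppressive cytokine, had 11, 1 and 4 counts in KO, against 97, 85 and 49 in Ctrl, and fell (log2 fold change -3.61 ± 0.56, adjusted p = 0.0186). Entpd1, the ectonucleotidase CD39, and Ikzf3, the transcription factor Aiolos, did not pass, at -0.22 ± 0.16 and 0.09 ± 0.09. Il10 was called without Ctrl replicate 3 but not without any other single library: the adjusted p was 0.0538, 0.0586 and 0.0968 without KO replicates 1 to 3 and 0.0732 and 0.0627 without Ctrl replicates 1 and 2. Without both libraries numbered 2 it was 0.0838. The fitted log2 fold change of Il10 was -4.56 without KO replicate 1 and -2.97 without both libraries numbered 2. With the replicate block its adjusted p was 0.000189.

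The classical AHR gene battery, xenobiotic-metabolising enzymes and feedback genes, was mostly below the filter. Of 10 genes 3 could be tested and 0 passed. Their median log2 fold change of 0.12 turned with the genes that passed the filter: it was -0.23 over 8 genes with no filter on low counts, and -0.42 to -0.25 over 4 genes without any 1 KO library, Ctrl replicate 2, Ctrl replicate 3 or both libraries numbered 2. In edgeR 1 was lower at an unadjusted p under 0.05, and DESeq2 and limma-voom called 0. Cyp1a1, the most used readout of AHR activity, had 4, 4 and 1 counts in KO and 2, 3 and 7 in Ctrl, and Ugt1a6a and Gsta1 had 0 in every library. Tiparp, an AHR-induced ADP-ribosyltransferase that restrains AHR, was at 18.96 ± 0.59 CPM in KO and 17.5 ± 0.96 CPM in Ctrl (log2 fold change 0.12 ± 0.08, adjusted p = 0.616). Nfe2l2, the transcription factor NRF2, was at 0.12 ± 0.08 (adjusted p = 0.551). Cyp2s1 had 3.04, 2.77 and 2.89 CPM in KO, against 4.99, 6.68 and 4.05 CPM in Ctrl (-0.85 ± 0.21, adjusted p = 0.122), and fell in the block fit (adjusted p = 0.0194). Nqo1, a quinone reductase, did not pass the filter, at 7, 4 and 3 counts in KO and 13, 15 and 12 in Ctrl.

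The cytosolic complex that holds AHR before ligand binding moved little. Of its 5 genes 0 passed in edgeR, with a median of -0.04; 1 was lower at an unadjusted p under 0.05, and DESeq2 and limma-voom called 0. The chaperones Hsp90ab1 and Hsp90aa1 had log2 fold changes of -0.04 ± 0.11 and -0.02 ± 0.16 (adjusted p = 0.923 and 0.981). Src, a kinase found in that complex, had 9.83, 10.7 and 8.71 CPM in KO, against 13.4, 12.996 and 12.4 CPM in Ctrl (-0.41 ± 0.11, adjusted p = 0.157). Of the fits run, only edgeR with the block called it lower (adjusted p = 0.0376).

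**Figure D3:**
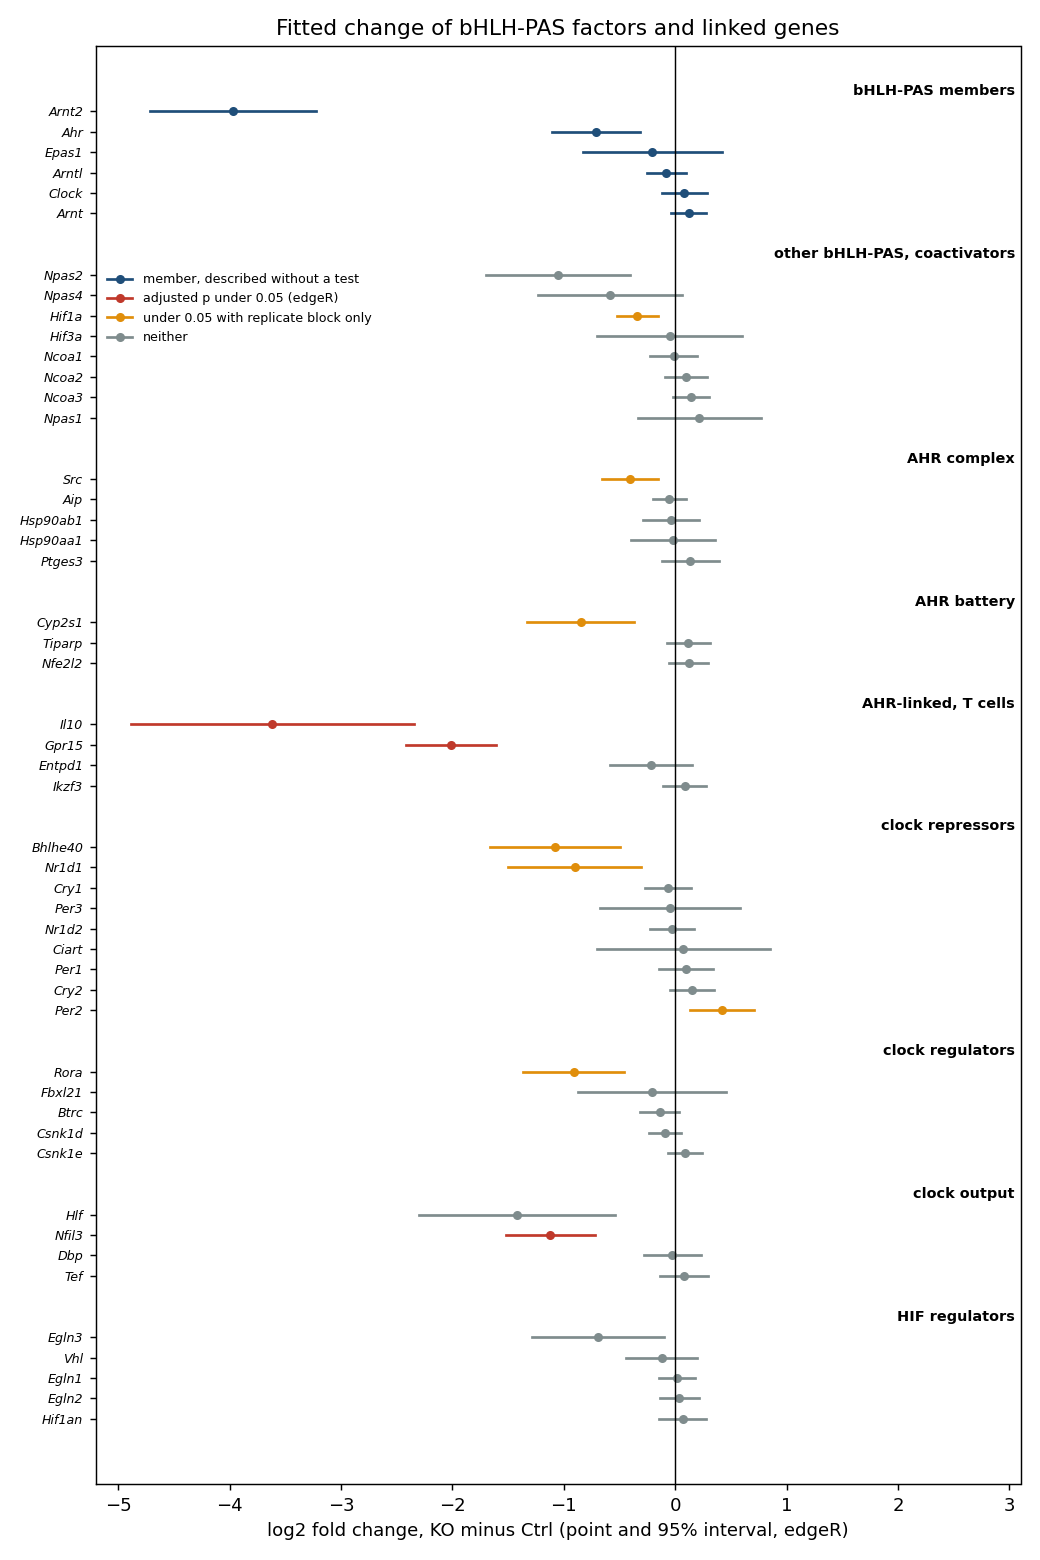
Log2 fold change of KO minus Ctrl (x axis, point and 95% interval from edgeR) for the 6 bHLH-PAS genes and the tested genes of the linked lists (rows). Colours give, for the linked genes only, a call in edgeR, a call with the replicate block only, or neither; Arnt2 at -3.97 and Il10 at -3.61 lie farthest from 0.

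Of the other bHLH-PAS genes and their coactivators, 8 of 12 could be tested and 0 passed in edgeR, with a median of -0.03; 2 were lower at an unadjusted p under 0.05, DESeq2 called 1 and limma-voom 0. The coactivators Ncoa3 and Ncoa2 were at 0.14 ± 0.07 and 0.10 ± 0.08 (adjusted p = 0.457 and 0.676). Hif1a, the sensor that pairs with ARNT at low oxygen, had 186, 169 and 207 CPM in KO, against 243, 230 and 238 CPM in Ctrl (-0.34 ± 0.08, adjusted p = 0.106). The groups did not overlap, and in the block fit it fell (adjusted p = 0.00728). Npas2, which can replace CLOCK, had 14, 10 and 11 counts in KO and 29, 30 and 27 in Ctrl (-1.05 ± 0.28, adjusted p = 0.155, or 0.0677 with the block). Arntl2, the BMAL1 paralog, was below the filter at 2, 3 and 2 counts in KO and 6, 3 and 7 in Ctrl, and Sim1 and Npas3 had 0 counts throughout. Of the 5 oxygen-dependent regulators of HIF-alpha proteins, 0 passed in edgeR, DESeq2 and limma-voom, and the median was 0.01. The prolyl hydroxylases Egln2 and Egln1 were at 0.04 ± 0.08 and 0.01 ± 0.07 (adjusted p = 0.876 and 0.964). At an unadjusted p under 0.05, 1 was lower, the prolyl hydroxylase Egln3. It had 3.08, 2.38 and 2.20 CPM in KO, against 3.88, 5.54 and 3.07 CPM in Ctrl. Its log2 fold change was -0.69 ± 0.26 (edgeR adjusted p = 0.315, or 0.0706 with the block).

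In the clock beyond Arntl and Clock, Nfil3 fell in KO, and 0 of the PER and CRY genes passed. Nfil3, a bZIP repressor that opposes DBP at its sites, had 12.5, 14.3 and 9.13 CPM in KO, against 27.5, 29.3 and 21.3 CPM in Ctrl. It fell 2.18-fold (-1.12 ± 0.18, adjusted p = 0.020) and was at 45.2%, 48.7% and 42.8% of the same-numbered Ctrl library. Of the 4 output genes it was the only one that passed, and the list median was -0.57; at an unadjusted p under 0.05, 2 were lower and 0 higher. Hlf, a bZIP activator related to DBP, had 9, 7 and 3 counts in KO, against 25, 15 and 21 in Ctrl, without overlap (-1.42 ± 0.39, adjusted p = 0.155, or 0.0516 with the block). Dbp itself was at -0.02 ± 0.11 (adjusted p = 0.957). Leaving out KO replicate 1 (adjusted p = 0.113), KO replicate 3 (0.0527), Ctrl replicate 1 (0.0777), Ctrl replicate 2 (0.0764) or both libraries numbered 2 (0.0655) ended the call of Nfil3. Of 5 further regulators, the activator Rora, casein kinases and ubiquitin ligase subunits, 0 passed in edgeR and the median was -0.14. At an unadjusted p under 0.05, 1 was lower and 0 higher; DESeq2 called 1 lower and limma-voom 0. The kinase Csnk1d, which phosphorylates PER proteins, was at -0.09 ± 0.06 (adjusted p = 0.589), and Btrc, a ubiquitin ligase subunit that targets PER proteins, at -0.14 ± 0.08 (adjusted p = 0.494).

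Of the 9 tested genes of the repressor arm, 0 passed in edgeR and the median was -0.03. At an unadjusted p under 0.05, 2 were lower and 1 higher; DESeq2 called 1 lower and limma-voom 0. With the replicate block 2 fell and 1 rose. Per1 and Cry1, which close the main feedback loop, were at 0.10 ± 0.11 and -0.06 ± 0.09 (adjusted p = 0.761 and 0.811). Bhlhe40, a bHLH repressor that competes with CLOCK and BMAL1 at E-boxes, had 30.4, 37.1 and 20.1 CPM in KO, against 66.0, 77.0 and 42.1 CPM in Ctrl. Every KO library was below every Ctrl library, and within numbers KO was at 46.1%, 48.2% and 47.7% of Ctrl. Its log2 fold change was -1.07 ± 0.26 (adjusted p = 0.107), and -1.08 ± 0.06 with the block (adjusted p = 1.4e-06). Nr1d1, the REV-ERB-alpha repressor of Arntl, had 5.78, 8.57 and 6.08 CPM in KO, against 13.9, 16.3 and 8.07 CPM in Ctrl (-0.90 ± 0.26, adjusted p = 0.192; with the block -0.89 ± 0.15, adjusted p = 0.00428). Here the groups overlapped, although each KO library was below its same-numbered Ctrl library. Nr1d1 overlaps Thra on the opposite strand, and the strand setting of the counting is not given, so reads of the pair may be mixed. Its paralog Nr1d2 was at -0.03 ± 0.09.

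Rora, which activates Arntl from the sites that REV-ERB represses, had 9.88, 7.64 and 8.39 CPM in KO, against 17.3, 19.9 and 11.6 CPM in Ctrl. The groups did not overlap (-0.91 ± 0.20, adjusted p = 0.0776), and in the block fit it fell (adjusted p = 0.00379). Per2 rose in the block fit, at 14.9, 13.1 and 14.5 CPM in KO and 12.1, 10.5 and 9.13 CPM in Ctrl (0.42 ± 0.13, adjusted p = 0.204, or 0.0398 with the block). Bhlhe40, Nr1d1 and Rora were each called without Ctrl replicate 3 (adjusted p = 0.0354, 0.0315 and 0.0114). DESeq2 without the block called Nr1d1, Rora and Hif1a lower. Nfil3, Bhlhe40 and Nr1d1 were highest in replicate 2 of both genotypes, as were the macrophage markers. Without both libraries numbered 2 their log2 fold changes were -1.17 ± 0.19, -1.09 ± 0.25 and -0.89 ± 0.26. In that fit edgeR called none of these genes (adjusted p = 0.0655, 0.185 and 0.371). The remaining libraries also hold macrophage RNA, and its part in these levels was not tested. The calls made with the block held in DESeq2 with the block for Bhlhe40, Nr1d1, Rora and Hif1a, but not for Per2, Src and Cyp2s1. Bhlhe40, Nr1d1, Rora, Per2, Hif1a, Npas2, Src, Cyp2s1, Hlf and Egln3 were named after their values were seen.

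**Figure D4:**
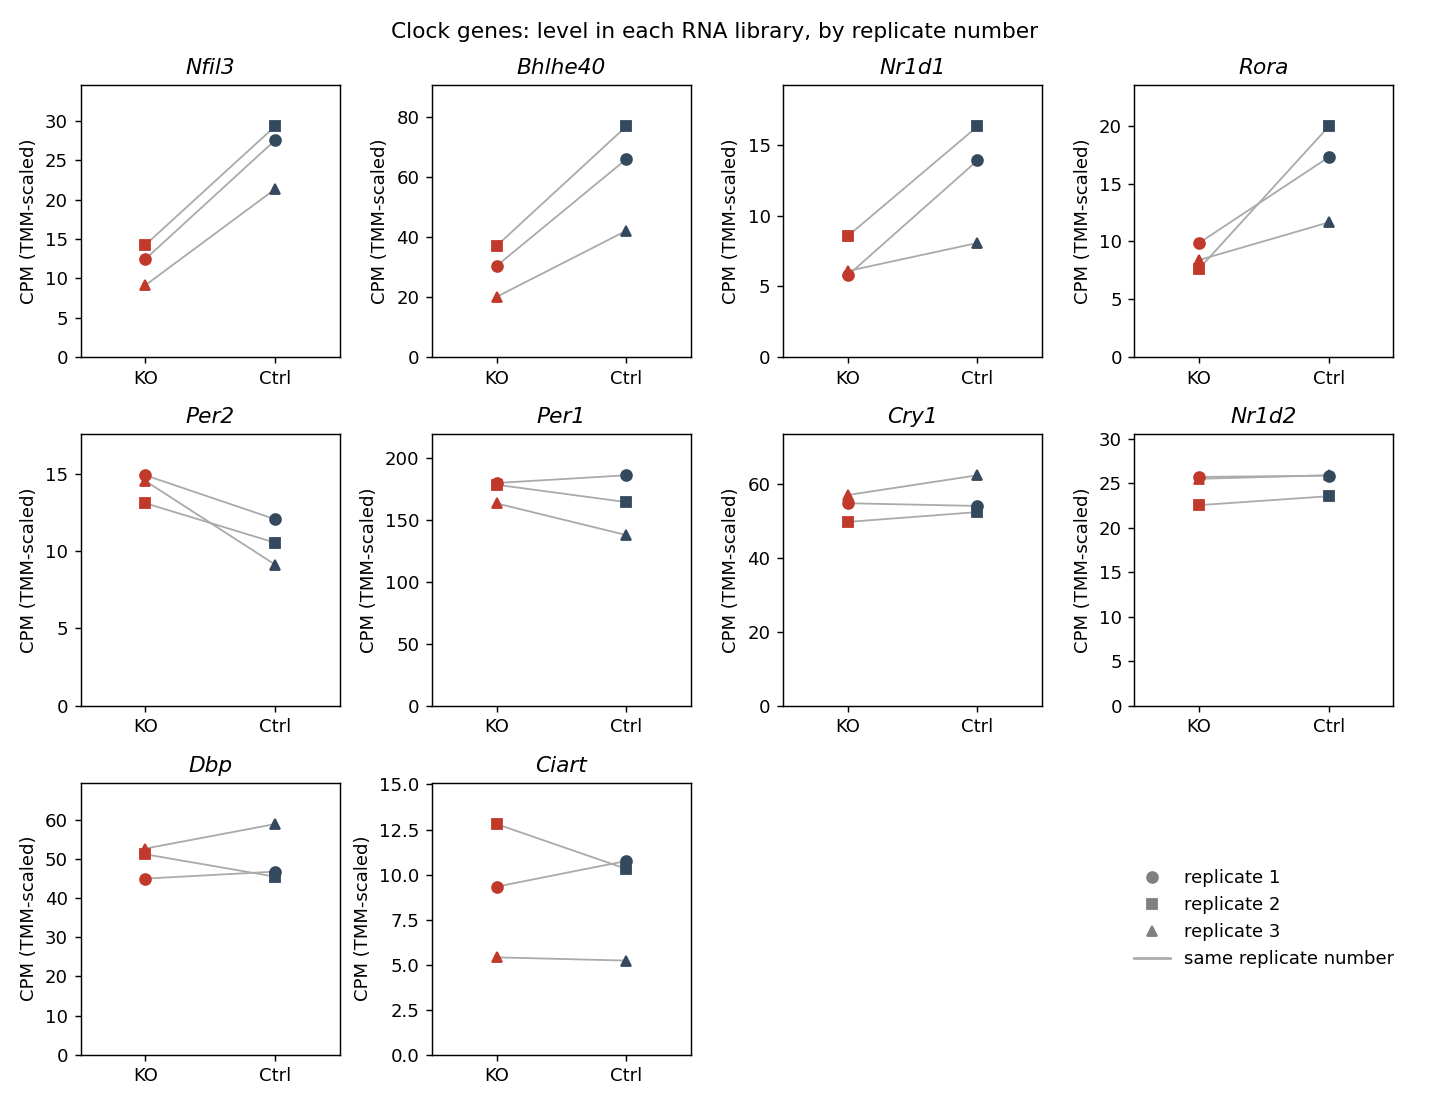
Level of 10 clock genes (y axis, TMM-scaled CPM from 0) in KO and Ctrl RNA libraries, with grey lines joining libraries of the same replicate number. For Bhlhe40 the lines run almost in proportion, with KO at 46.1% to 48.2% of Ctrl, while Per1, Cry1, Nr1d2 and Dbp differ little between the genotypes.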

How the data were processed

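Poly(A) RNA libraries of sorted YFP+ Treg, 3 KO and 3 Ctrl, were described from 1 deposited table of raw counts per Ensembl gene, which the authors made with HTSeq, per the labels. Further tools in the submitters' processing notes, without roles, are bedtools, Bowtie2, Cufflinks, DESeq2, HISAT2 and SAMtools, with mm9 and mm10 as builds; tool versions, annotation and strand setting: not given in the sources used here. Of 22553 IDs, 22522 matched a symbol (the rest held 0.00269% of counts). Counts were fitted with edgeR 4.0.16 in R 4.3.3: filterByExpr (minimum count 10, minimum total 15; 11990 genes kept), TMM factors of 0.9899 to 1.0274, the quasi-likelihood F test of KO minus Ctrl, and Benjamini-Hochberg adjustment over all tested genes, with calls at an adjusted p under 0.05. Standard errors came from the F statistic and 95% intervals from them. A count of 3 equals 0.11 to 0.157 CPM; count intervals cover counting error only.

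Same-numbered KO and Ctrl libraries correlated in their deviations from group means over all tested genes (r = 0.3, 0.584 and 0.537 for numbers 1 to 3), each above the limit of 0.1 set for pairing, so a fit with the number as a block is given where it changes a call. This pairing comes from the data, and the labels do not say what the numbers share. Without the block, p-values measure the spread between pools. With it, they measure the spread of the KO and Ctrl difference across numbers. Either spread may be partly technical. Libraries of 1 group differed beyond sampling noise (chi-square per degree of freedom 8.75 to 27.4).

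The genes, lists, tests and alternatives (DESeq2 1.42.0, limma-voom 3.58.1, other scaling, no filter, each library left out) were chosen with earlier results of these data known. Genes were named by a rule: up to 4 called genes per list, otherwise the 2 most abundant. Genes outside this rule are named as well, among them Entpd1, Ikzf3, Cyp1a1, Nqo1, Arntl2 and Nr1d2, and only some are marked. Some genes of the linked lists are not reported here and were taken out of their counts. Likeness used log2 CPM with a prior count of 2 over tested genes averaging 1 CPM or more. The test was checked on simulated data for this comparison (11990 genes, 200 changed, 3 runs): 82.1% of 2-fold and 95.4% of 4-fold changes were called in the right direction, and 7.22% of calls were on unchanged genes. The simulated libraries were drawn independently, without the deviations that same-numbered libraries share, so these rates may not hold for the real counts.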

Additional observations from a re-analysis of the deposited data

How the results depend on the processing

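The alternatives refit the same counts that chose the genes, so they show only how far values move with the processing. The log2 fold change of Arnt2 was -4.23 to -3.82 with a library left out and -4.21 to -3.83 otherwise. That of Ahr was -0.83 to -0.52 with a library left out, -0.70 with DESeq2, -0.70 with the replicate block and, added after seeing the data, -0.69 with the replicate block in DESeq2. Epas1 was at -0.42 to 0.028 with a library left out. Ahrr was below the filter and has no fitted value. The cause of these shifts was not tested.

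Genes called lower numbered 167, or 262 with DESeq2, 526 with the replicate block, 298 with the replicate block in DESeq2, 54 without both libraries numbered 2 and 26 to 166 with a library left out. Genes called higher numbered 12, or 76, 236, 136, 0 and 0 to 10 in the same order, and 3 with limma-voom. Linked genes called lower numbered 3, or 6, 9, 7, 1 and 1 to 6; they numbered 5 with no filter on low counts. Linked genes called higher numbered 0, or 1 with the replicate block. List medians near 0 changed sign over the alternatives: they spanned -0.091 to 0.077 for the AHR complex, -0.057 to 0.10 for the clock repressors, -0.045 to 0.035 for the HIF regulators and -0.12 to 0.097 for the other bHLH-PAS genes. Near-flat genes changed sign when a library was left out: Hsp90ab1 at -0.096 to 0.077, Hsp90aa1 at -0.16 to 0.14, Cry1 at -0.11 to 0.017, Per1 at -0.011 to 0.21, Egln2 at -0.014 to 0.12 and Egln1 at -0.044 to 0.057, the last also without both libraries numbered 2 (-0.045). With 1 library left out a group has 2, and genes at a few counts, such as Arnt2 in KO and Ahrr, are limited by depth.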

Other observations

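Some clock genes followed the replicate number more than the genotype; these were picked after their values were seen and were not tested. Ciart, a repressor of CLOCK and BMAL1, had 9.33, 12.8 and 5.40 CPM in KO replicates 1 to 3 and 10.8, 10.3 and 5.22 CPM in Ctrl replicates 1 to 3, so replicate 3 was the lowest in both genotypes. Per3 was also lowest in replicate 3 of both, at 2.94 CPM in KO and 2.67 CPM in Ctrl. Dbp was highest there, at 52.7 CPM in KO and 59.0 CPM in Ctrl. The labels give no collection times.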
